A study of Mus musculus with 26 samples.

Results

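The Fos and Jun family genes Fos, Fosb, Fosl1, Fosl2, Jun, Junb and Jund were followed across 26 Affymetrix arrays of immortalized mouse embryonic fibroblasts, cells grown from mouse embryos that divide without limit in culture. The members are all probe sets that the platform annotation assigns to 1 of these 7 symbols alone, which gave 11 of the 45101 probe sets and 7 of the 18193 genes with a probe set. 3 parental lines named WA, WB and WC had each received 1 of 3 retroviral vectors: pBabe-human v-src, as the labels spell it, pBabe-human c-myc, or pBabe-puro with no insert. All groups are virus-infected, so the empty vector arrays are infected cells and not untouched ones. 8 of the 9 groups had 3 arrays, and the WB v-src group had 2 because its replicate 1 was not analysed here. The labels do not say whether each line is 1 clone, nor whether the arrays of a group came from separate cultures, so a p-value within a line is set against array-to-array spread, and that spread may be technical. Each value is the MAS5 signal of a probe set, a background-corrected probe brightness on a linear scale set to the same trimmed mean on every array. Differences are on the scale of log2(signal + 23), where the added constant understates changes of dim probe sets. RNA came from whole dishes, so fewer cells that express a gene and less RNA per cell cannot be told apart.

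Fos and Jun proteins form AP-1, a dimeric transcription factor held together by leucine zippers. Fos proteins (Fos, Fosb, and the Fos-related antigens encoded by Fosl1 and Fosl2) need a Jun partner to bind DNA, whereas Jun proteins can also pair among themselves. In fibroblasts several of these genes are immediate early genes, switched on within minutes of a mitogen through the ERK and JNK kinase cascades. AP-1 activity is a known requirement of transformation by tyrosine kinase oncogenes such as v-src, whereas Myc belongs to another family of dimeric factors.

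The fibroblast identity was checked on its markers: 8 of 9 fibroblast genes had a mean above the 90th percentile of all probe sets, and 0 of the markers of macrophages and blood, endothelium, epithelium, muscle or neural cells did. The summed signal of the 9 fibroblast genes was 91021 to 105084 on v-src arrays, 95786 to 114096 on c-myc arrays and 110804 to 171449 on empty vector arrays, so that all v-src arrays lay below all empty vector arrays. The sum of the 4 neural and glial genes was 817 to 1486 on v-src arrays, 876 to 1589 on c-myc arrays and 1208 to 2621 on empty vector arrays. The summed signal of the 6 macrophage and blood genes was 1159 to 3753 on v-src arrays, 806 to 1833 on c-myc arrays and 624 to 1460 on empty vector arrays. That of the 5 epithelium genes was 1261 to 6045 on v-src arrays, 528 to 3884 on c-myc arrays and 855 to 2932 on empty vector arrays. Within that list Epcam ran from 97.2 to 5624, while Cdh1, Krt8, Krt18 and Krt14 were at most 344 on any array. The part of these sums in the results was not tested. Array pairs of the same group correlated at 0.960 to 0.976 over all probe sets and pairs of different groups at 0.912 to 0.964. The WC empty vector arrays were spread widely in the genes treated here. On replicate 1, 10 of 12 other immediate early genes were the lowest of the group's 3 arrays. Their summed signal was 26619 on that array against 40558 and 45030 on the other arrays. WC c-myc replicate 1 was also low, the lowest of its group in 7 of the 12, with a summed signal of 17632 against 24789 and 25512. Most differences of members from the WC empty vector group, within WC and between lines, are therefore also given without its replicate 1. The low c-myc array was kept in those fits, and no such value is given for Egr1.

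The proximal promoters of Fos, Fosb, Jun and Junb are shown because c-myc raised each of them in WB and in neither of the other lines. For Fosb the F test of a difference between lines in the c-myc effect was not passed (adjusted p = 0.0922). 6 of the 7 members had a promoter window in the RefSeq table of mouse build GRCm38.p6, running from 250 bases before to 50 bases after the start. Fosl1, which also rose with c-myc in WB, had none. Capitals mark the letters TGACG, the half-site of the cAMP response element, the letters TGACATCA, an AP-1 site variant, and the TATA box letters TATAAA, each searched on both strands; no marked sites overlap.
Fos (chr12:85473640-85473939, plus strand): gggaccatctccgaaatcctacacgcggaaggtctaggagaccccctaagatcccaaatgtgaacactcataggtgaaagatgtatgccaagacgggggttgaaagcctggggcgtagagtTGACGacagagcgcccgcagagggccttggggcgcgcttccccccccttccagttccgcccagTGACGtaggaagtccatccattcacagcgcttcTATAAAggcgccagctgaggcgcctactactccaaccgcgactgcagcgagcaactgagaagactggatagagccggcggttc
Fosb (chr7:19309996-19310295, minus strand): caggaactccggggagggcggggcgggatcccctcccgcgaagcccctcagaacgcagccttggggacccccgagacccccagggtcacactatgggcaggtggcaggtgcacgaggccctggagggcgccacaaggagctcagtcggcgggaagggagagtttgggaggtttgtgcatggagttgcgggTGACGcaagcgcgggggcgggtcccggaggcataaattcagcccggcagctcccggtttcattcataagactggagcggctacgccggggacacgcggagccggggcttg
Jun (chr4:95052173-95052472, minus strand): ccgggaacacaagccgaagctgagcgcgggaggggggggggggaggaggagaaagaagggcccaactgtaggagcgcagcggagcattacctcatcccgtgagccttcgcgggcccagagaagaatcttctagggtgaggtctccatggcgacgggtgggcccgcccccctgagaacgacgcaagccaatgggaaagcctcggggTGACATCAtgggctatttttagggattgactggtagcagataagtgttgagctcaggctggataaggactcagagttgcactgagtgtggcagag
Junb (chr8:84978699-84978998, minus strand): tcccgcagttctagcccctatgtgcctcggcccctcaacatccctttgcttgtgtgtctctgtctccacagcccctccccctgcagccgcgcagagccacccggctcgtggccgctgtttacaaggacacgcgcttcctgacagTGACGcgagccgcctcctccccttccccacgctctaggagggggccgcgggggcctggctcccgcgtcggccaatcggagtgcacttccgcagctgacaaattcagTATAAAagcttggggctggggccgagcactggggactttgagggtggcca
Counted from the RefSeq start as 1, the Fos window held TGACG at -129 to -125 and at -66 to -62 and TATAAA at -33 to -28. The Fosb window held TGACG at -60 to -56, the Jun window TGACATCA at -45 to -38, and the Junb window TGACG at -106 to -102 and TATAAA at 1 to 6. Of 32851 windows of the same length, 20.8% held TGACG, 13.6% TATAAA and 3.62% TGACATCA. The letters TGANTCA of the common AP-1 site, in 7.81% of windows, and the serum response element known as the CArG box, in 1.63%, were in none of the 6 member windows. Sites more than 250 bases before the start lay outside the windows and were not searched, so a gene may hold these motifs further upstream. The windows of Fosl2 and Jund held none of these motifs.

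v-src raised members of both families in every line. Against the empty vector, v-src arrays were higher for 8 of 11 member probe sets and lower for 0 in WA, where 6.7% of the 45037 tested probe sets were higher and 6.91% lower. In WB 8 were higher and 0 lower, against 6.16% and 6.42% of all probe sets, and in WC 6 were higher and 1 lower, against 6.92% and 7.59%. Fosl1, Junb and the leading probe set of Jun were higher in all 3 lines. The leading probe set of a gene is the one with the highest mean, and called means an adjusted p under 0.05 in limma, adjusted over all tested probe sets. Without WC empty vector replicate 1, 6 member probe sets were called in WC, and without WC v-src replicate 1 it was 4, against 7 with all arrays.

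c-myc moved some members in different directions in different lines. In WB it raised 9 of 11 member probe sets and lowered 0, where 6.01% of all probe sets were higher and 6.47% lower. In WA it raised 1, Fosl2 1422931_at, and lowered 3, Fosl2 1437247_at and both Jun probe sets, against 9.71% and 8.79% of all probe sets. In WC it raised 1 and lowered 5, against 9.24% and 8.77%. Without WC empty vector replicate 1, 5 were called in WC, and 2 when only the arrays of the groups compared were fitted. The test of whether the c-myc effect differed between lines was passed by 8 of 11 member probe sets, against 6.41% of all probe sets. The same test for the v-src effect was passed by 6 of 11, against 5.83%. Without WC v-src replicate 3 the v-src count was 3. In a pairwise contrast chosen after the values were seen, the c-myc effect was larger in WB than in WA for 7 of 11, against 4.05% of all probe sets called in either direction, and larger in WB than in WC for 7 of 11, against 3.08%. Without WC empty vector replicate 1 the contrast of WB minus WC was called for 5 of 11. The test across lines was then passed by 5 with v-src and by 7 with c-myc.

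**Figure D1:**
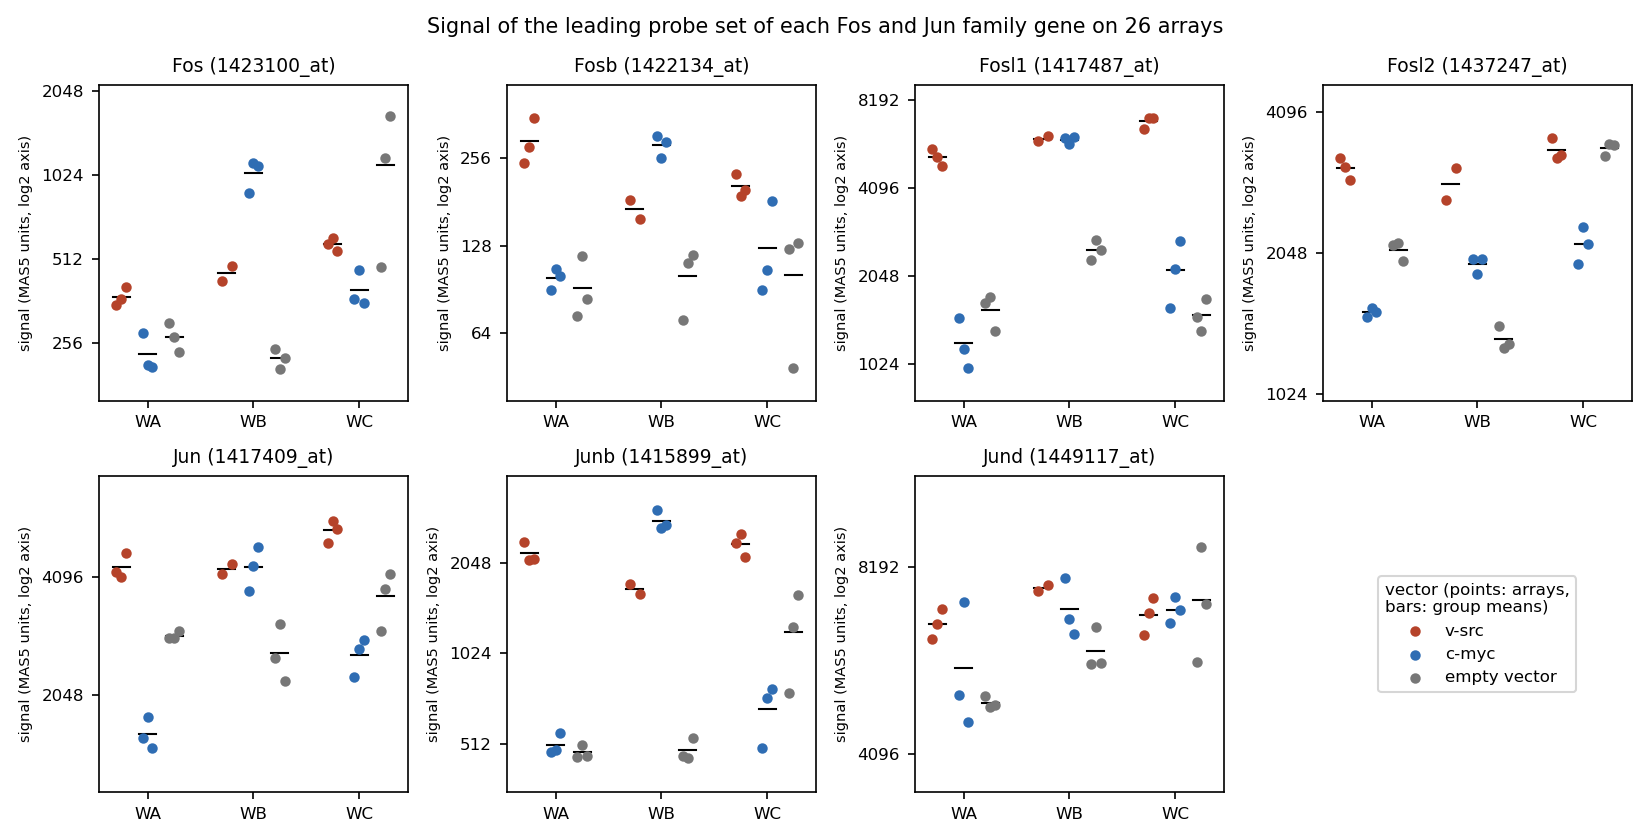
Signal of the leading probe set of each member on every array, on a log2 axis in MAS5 units, with the v-src, c-myc and empty vector arrays of each line side by side and bars at the group means. Fosl1 and Junb sit high on all v-src arrays and on the WB c-myc arrays, while the c-myc arrays of WA and WC stay near or below the empty vector for most genes.

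Junb, which encodes a Jun protein with weaker activating power than Jun itself, had the largest log2 difference of the 11 member probe sets between c-myc and empty vector in WB. In WA the signal was 2394, 2085 and 2111 on the v-src arrays, 479.7, 487 and 557 on the c-myc arrays and 465, 508 and 468 on the empty vector arrays. In WB the signal was 1733 and 1610.2 on the v-src arrays, 3056, 2676 and 2738 on the c-myc arrays and 467, 459 and 537 on the empty vector arrays. In WC the signal was 2388, 2549 and 2137 on the v-src arrays, 495, 726 and 779 on the c-myc arrays and 756, 1255 and 1603 on the empty vector arrays. Every v-src array lay above every empty vector array of its line, and the WB c-myc arrays lay above all other arrays of the series. The c-myc arrays of WA and of WC overlapped with the empty vector arrays of their line. v-src raised Junb 4.41-fold in WA, a log2 difference of 2.14 (SE 0.18, adjusted p = 4.47e-09). The rise was 3.32-fold in WB, 1.73 (SE 0.20, adjusted p = 6.99e-07), and 2.02-fold in WC, 1.02 (SE 0.18, adjusted p = 0.000154). c-myc raised it 5.58-fold in WB, a log2 difference of 2.48 (SE 0.18, adjusted p = 1.24e-09), and lowered it in WC by a log2 difference of -0.79 (SE 0.18, adjusted p = 0.00178). The difference in WA was 0.08 (SE 0.18, adjusted p = 0.851). The v-src rise in WC was 0.72 without WC empty vector replicate 1. The c-myc fall in WC was -1.09 without WC empty vector replicate 1, and its adjusted p was 0.114 when only the groups compared were fitted. The c-myc effect in WB exceeded that in WA by 2.40 (SE 0.25, adjusted p = 1.19e-06) and that in WC by 3.27 (SE 0.25, adjusted p = 7.24e-08) on the log2 scale. The excess over WC was 3.57 without WC empty vector replicate 1. Group means of Junb ran from WB c-myc, WC v-src, WA v-src, WB v-src, WC empty vector, WC c-myc, WA c-myc, WB empty vector to WA empty vector in descending order. The arrays of WB c-myc, WA v-src and WB v-src did not overlap with those of the next group in that order, and all other neighbours overlapped.

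Fos, the founding member and a textbook immediate early gene, rose with c-myc in WB as Junb did, while its v-src differences had both signs. The WA arrays read 352, 370.4 and 407 with v-src, 279.7, 215 and 211 with c-myc and 303, 269.8 and 239 with the empty vector. The WB arrays read 428 and 485 with v-src, 887, 1132 and 1103 with c-myc and 244, 207 and 227 with the empty vector. The WC arrays read 583, 609 and 546 with v-src, 369, 468 and 357 with c-myc and 481, 1185 and 1667 with the empty vector. In WB the c-myc arrays lay above both other vectors without overlap; in WC the empty vector arrays lay above the c-myc arrays and reached from below to above the v-src arrays. c-myc raised Fos 4.25-fold in WB, a log2 difference of 2.09 (SE 0.25, adjusted p = 3.51e-06), while in WA the difference was -0.19 (SE 0.25, adjusted p = 0.71). In WC c-myc lowered Fos by a log2 difference of -1.27 (SE 0.25, adjusted p = 0.000573), or -1.77 without WC empty vector replicate 1, with an adjusted p of 0.0741 when only the groups compared were fitted. v-src raised Fos in WB, 0.94 (SE 0.28, adjusted p = 0.0259). That call was lost without WB empty vector replicate 2 (0.0777) or 3 (0.0598) or without WB v-src replicate 2 (0.103) or 3 (0.175, adjusted p). In WA the v-src difference was 0.45 (SE 0.25, adjusted p = 0.284). In WC it was -0.75 (SE 0.25, adjusted p = 0.0478), a call that was lost in 24 of 26 fits that left out 1 array, with adjusted p up to 0.359. The difference was -1.25 without WC empty vector replicate 1 (adjusted p = 5.26e-06) and -0.37 without replicate 3. The c-myc effect in WB exceeded that in WA by 2.28 (SE 0.36, adjusted p = 0.000266) and that in WC by 3.36 (SE 0.36, adjusted p = 4.18e-06). The excess over WC was 3.86 without WC empty vector replicate 1. In descending order, Fos group means ran from WB c-myc, WC empty vector, WC v-src, WB v-src, WC c-myc, WA v-src, WA empty vector, WA c-myc to WB empty vector. The arrays of WC v-src and WA v-src did not overlap with those of the next group in that order, and all other neighbours overlapped.

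Fosb, whose transcripts also give the truncated ΔFosB protein, had the dimmest leading probe set of the 7, at percentile 55.9 of all probe sets. With v-src the WA signals were 247, 281 and 353, with c-myc 90.04, 107 and 101 and with the empty vector 73.3, 118 and 84.2. With v-src the WB signals were 184 and 158, with c-myc 304, 256 and 291 and with the empty vector 71.2, 112 and 119. With v-src the WC signals were 225, 189.5 and 199, with c-myc 90.2, 106 and 183 and with the empty vector 124, 48.7 and 131. The v-src arrays lay above the empty vector arrays in every line, and the c-myc arrays did so in WB. v-src raised Fosb in WA, 1.47 (SE 0.27, adjusted p = 0.000399), and in WC, 0.95 (SE 0.27, adjusted p = 0.017); the difference in WB was 0.67 (SE 0.30, adjusted p = 0.181). The WC difference was 1.11 without WC empty vector replicate 1. The call was lost without empty vector replicate 2, with a difference of 0.59 and an adjusted p of 0.159, and without v-src replicate 1, with 0.0685. c-myc raised Fosb in WB, 1.33 (SE 0.27, adjusted p = 0.00129), with differences of 0.10 (SE 0.27, adjusted p = 0.868) in WA and 0.29 (SE 0.27, adjusted p = 0.567) in WC, the last 0.45 without WC empty vector replicate 1. The c-myc effect was not called different between lines, with an adjusted p of 0.0922 and an unadjusted interval of 0.43 to 2.02 for WB minus WA. Group means of Fosb ran from WA v-src, WB c-myc, WC v-src, WB v-src, WC c-myc, WA c-myc, WB empty vector, WC empty vector to WA empty vector in descending order. The arrays of WB c-myc and WC v-src did not overlap with those of the next group in that order, and all other neighbours overlapped.

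Fosl1, which encodes the Fos-related antigen Fra-1, a factor tied to motility and invasion in transformed cells, responded to v-src in every line. In WA the signal was 5585, 5258 and 4864 on the v-src arrays, 1472, 1149.9 and 993 on the c-myc arrays and 1655, 1732 and 1330.3 on the empty vector arrays. In WB the signal was 5957 and 6164 on the v-src arrays, 6098, 5800.1 and 6126 on the c-myc arrays and 2322, 2729.6 and 2513 on the empty vector arrays. In WC the signal was 6560.4, 7144 and 7142 on the v-src arrays, 1593, 2158 and 2693 on the c-myc arrays and 1483, 1332 and 1709.6 on the empty vector arrays. The v-src arrays of all 3 lines and the c-myc arrays of WB lay between 4864 and 7144, and all other arrays between 993 and 2729.6. v-src raised Fosl1 3.31-fold in WA, a log2 difference of 1.73 (SE 0.14, adjusted p = 6.05e-09). The rise was 2.4-fold in WB, 1.26 (SE 0.16, adjusted p = 4.25e-06), and 4.57-fold in WC, 2.19 (SE 0.14, adjusted p = 5.65e-11). c-myc raised it 2.37-fold in WB, 1.25 (SE 0.14, adjusted p = 2.08e-06), where v-src and c-myc differed by 0.01 with an interval of -0.32 to 0.35. In WC c-myc gave a log2 difference of 0.48 (SE 0.14, adjusted p = 0.0206), a call lost without WC empty vector replicate 1 or 2 or without WC c-myc replicate 2 or 3, where the adjusted p reached 0.192 and the difference 0.30; in WA it was -0.39 (SE 0.14, adjusted p = 0.0671). The other Fosl1 probe set, 1417488_at, gave v-src differences in WA of 1.91, in WB of 1.29 and in WC of 2.50. Its c-myc difference in WB was 1.33. The v-src differences in WC were 2.18 on 1417487_at and 2.39 on 1417488_at without WC empty vector replicate 1. The group means of both Fosl1 probe sets ran in parallel, with a Pearson correlation of 0.994 over the 9 groups. In descending order, Fosl1 group means ran from WC v-src, WB v-src, WB c-myc, WA v-src, WB empty vector, WC c-myc, WA empty vector, WC empty vector to WA c-myc. The arrays of WC v-src, WB c-myc and WA v-src did not overlap with those of the next group in that order, and all other neighbours overlapped.

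Jun, the most active of the Jun proteins and a substrate of JNK, was raised by v-src in all lines and moved both ways under c-myc. The WA arrays read 4217, 4083 and 4695 with v-src, 1592, 1805 and 1505 with c-myc and 2856, 2853 and 2981 with the empty vector. The WB arrays read 4161 and 4406 with v-src, 3763, 4372 and 4868 with c-myc and 2548, 3097 and 2229 with the empty vector. The WC arrays read 4995, 5680.3 and 5428 with v-src, 2271, 2681 and 2832 with c-myc and 2986, 3809 and 4151 with the empty vector. The v-src arrays lay above the empty vector arrays in each line; the c-myc arrays lay below them in WA and WC, and above them in WB. v-src raised the leading Jun probe set in WA by a log2 difference of 0.57 (SE 0.12, adjusted p = 0.00169). In WB the difference was 0.71 (SE 0.14, adjusted p = 0.000572), and in WC 0.57 (SE 0.12, adjusted p = 0.00165), or 0.43 without WC empty vector replicate 1 (adjusted p = 0.0197). c-myc lowered it in WA, -0.82 (SE 0.12, adjusted p = 1.86e-05), and in WC, -0.48 (SE 0.12, adjusted p = 0.00569), and raised it in WB, 0.72 (SE 0.12, adjusted p = 0.000181). The WC fall had an adjusted p of 0.0792 when only the groups compared were fitted, and was -0.62 without WC empty vector replicate 1. The second Jun probe set, 1448694_at, had the same sign as the leading one in all 6 within-line comparisons with the empty vector. On it v-src gave 0.42 in WA (adjusted p = 0.0517), 0.87 in WB and in WC 0.54. With c-myc the differences were -1.09 for WA, 0.50 for WB and -0.89 for WC, the last -1.08 without WC empty vector replicate 1. The WB call under c-myc was lost without WB empty vector replicate 3 (0.0697) or WB c-myc replicate 3 (0.159, adjusted p). The WC call under v-src was lost without WC empty vector replicate 1 (0.101) or WC v-src replicate 1 (0.0556, adjusted p). The c-myc effect on the leading probe set in WB exceeded that in WA by 1.54 (SE 0.17, adjusted p = 3.12e-06) and that in WC by 1.20 (SE 0.17, adjusted p = 0.000232). The excess over WC was 1.34 without WC empty vector replicate 1. The v-src effect was not called different between lines (adjusted p = 0.888). Group means of Jun ran from WC v-src, WA v-src, WB c-myc, WB v-src, WC empty vector, WA empty vector, WB empty vector, WC c-myc to WA c-myc in descending order. The arrays of WC v-src, WB v-src, WC empty vector and WC c-myc did not overlap with those of the next group in that order, and all other neighbours overlapped.

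Fosl2, which encodes Fra-2, had 2 probe sets that gave different directions with c-myc. The values that follow are those of the leading one, 1437247_at. With v-src the WA signals were 3267, 3118 and 2928, with c-myc 1492, 1561 and 1536 and with the empty vector 2126, 2152 and 1969. With v-src the WB signals were 2654 and 3106, with c-myc 1986, 1849 and 1984 and with the empty vector 1428, 1287 and 1312. With v-src the WC signals were 3604, 3268 and 3313, with c-myc 1943, 2326 and 2145 and with the empty vector 3299.5, 3499.6 and 3478. The c-myc arrays lay below the empty vector arrays in WA and WC and above them in WB, and the v-src arrays overlapped with the empty vector arrays in WC. On 1422931_at the WA signal was 1216, 986 and 1171 on v-src arrays, 1113, 1261 and 1216 on c-myc arrays and 694, 740.2 and 539 on empty vector arrays. In WB it was 1251 and 987 on v-src arrays, 892, 891 and 1133 on c-myc arrays and 479, 518 and 439 on empty vector arrays. In WC it was 978, 1072 and 1068 on v-src arrays, 978, 1196 and 1259 on c-myc arrays and 971, 873 and 928 on empty vector arrays. On this probe set both oncogenes lay above the empty vector without overlap in all 3 lines, although the WC differences were not called. c-myc in WA gave -0.44 (SE 0.08, adjusted p = 0.000138) on 1437247_at and 0.85 (SE 0.13, adjusted p = 1.74e-05) on 1422931_at. In WC the differences in the same order of probe sets were -0.68 (SE 0.08, adjusted p = 6.63e-07) and 0.30 (SE 0.13, adjusted p = 0.12). In WB both probe sets were higher with c-myc, by 0.52 (SE 0.08, adjusted p = 3.56e-05) on 1437247_at and 0.98 (SE 0.13, adjusted p = 7.44e-06) on 1422931_at. v-src raised both in WA, by 0.57 and 0.76, and in WB, by 1.09 and 1.18. In WC the differences were -0.01 (SE 0.08, adjusted p = 0.953) and 0.17 (SE 0.13, adjusted p = 0.494). Without WC empty vector replicate 1 the WC differences on 1437247_at and 1422931_at were -0.04 and 0.20 for v-src and -0.70 and 0.33 for c-myc. The signs of the 2 probe sets were opposite in 3 of 6 within-line comparisons with the empty vector, so no direction is given for Fosl2 under c-myc in WA and WC. In descending order, Fosl2 group means ran from WC empty vector, WC v-src, WA v-src, WB v-src, WC c-myc, WA empty vector, WB c-myc, WA c-myc to WB empty vector. The arrays of WC v-src, WB v-src, WB c-myc and WA c-myc did not overlap with those of the next group in that order, and all other neighbours overlapped.

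**Figure D2:**
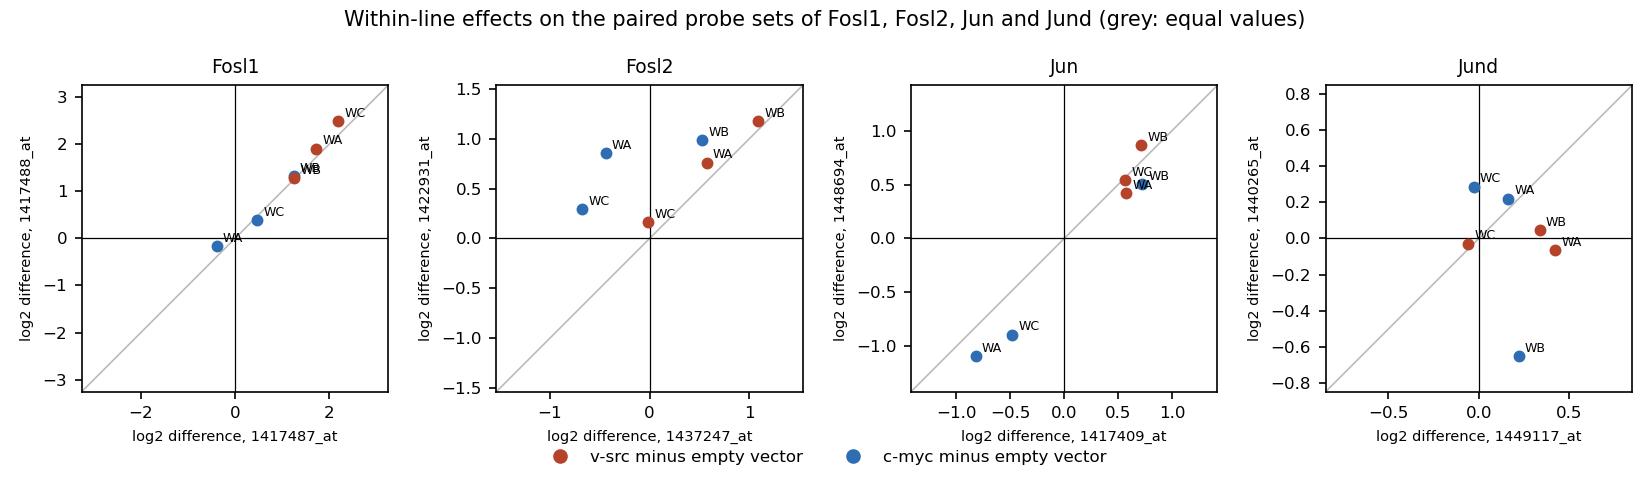
Log2 differences from the empty vector within each line on the leading probe set (horizontal) and the other probe set (vertical) of Fosl1, Fosl2, Jun and Jund, with v-src and c-myc points labelled by line and a grey line of equal values. Fosl1 and Jun points lie near the line with equal signs in 6 of 6 comparisons, while the Fosl2 points of c-myc in WA and WC lie in the upper left, negative on one probe set and positive on the other.

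Jund, which encodes the Jun protein already present in resting cells, moved least. The leading probe set stayed between 4622 and 8828 on all 26 arrays, with group means within 0.61 of each other on the log2 scale, against 2.52 for Fosl1 and 2.50 for Junb. In WA the signal was 6284, 6633 and 7018 on v-src arrays, 5105, 7209.9 and 4622 on c-myc arrays and 5083, 4873 and 4912 on empty vector arrays. The only call against the empty vector was v-src in WA, 0.42 (SE 0.13, adjusted p = 0.0354), and it was lost when any 1 of the 6 arrays of those groups was left out (adjusted p = 0.0554 to 0.119). The c-myc difference was 0.16 in WA, with an interval of -0.11 to 0.43. It was 0.22 in WB (-0.05 to 0.49), and for WC -0.03 (-0.30 to 0.24), or -0.18 without WC empty vector replicate 1. The dim second probe set, 1440265_at, lay between 38.6 and 162 and had no call against the empty vector. Group means of Jund ran from WB v-src, WC empty vector, WC c-myc, WB c-myc, WC v-src, WA v-src, WB empty vector, WA c-myc to WA empty vector in descending order. All neighbours in that order overlapped.

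**Figure D3:**
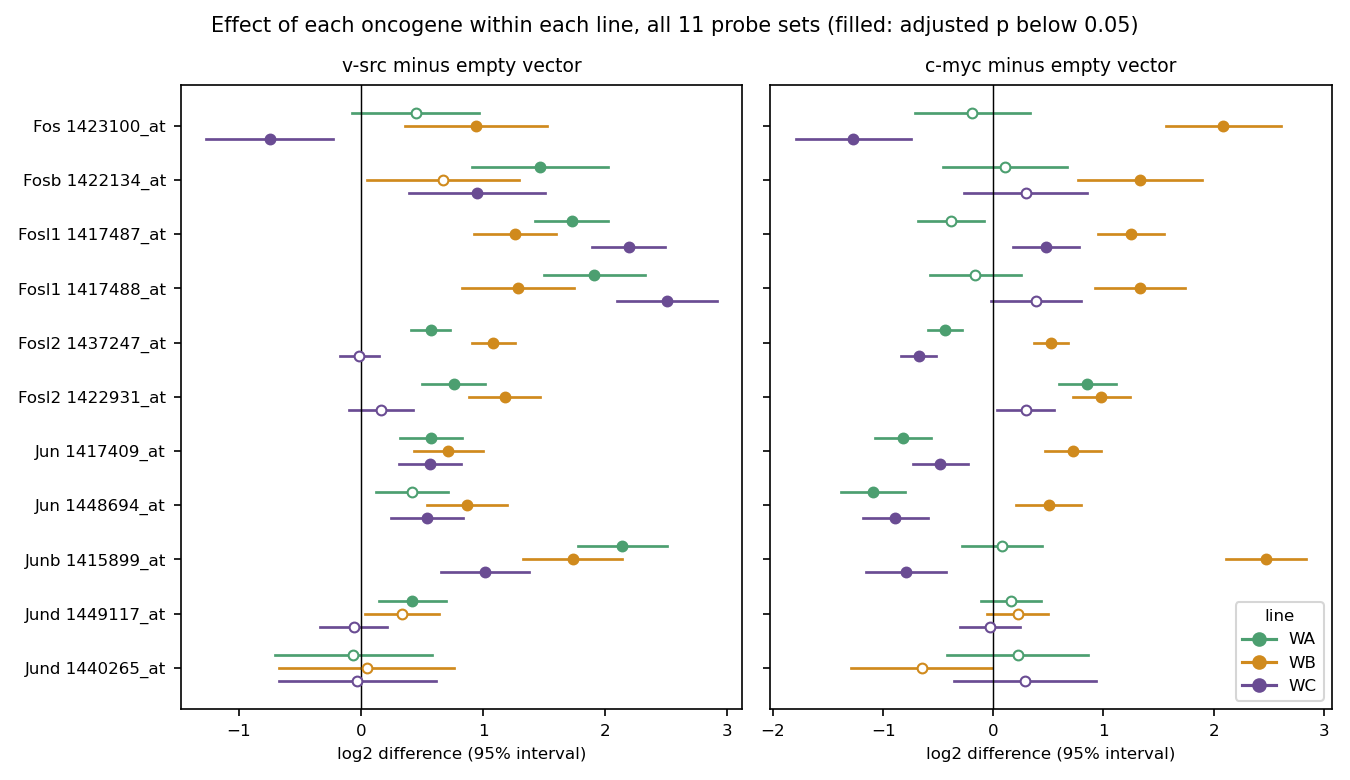
Log2 differences from the empty vector with 95% intervals for all 11 probe sets in lines WA, WB and WC, v-src on the left and c-myc on the right; filled points have an adjusted p under 0.05. Under v-src most points lie right of 0 in every line, and under c-myc the WB points of Fos, Fosb, Fosl1, Fosl2, Jun and Junb do. The WB intervals of Fos, Fosl1, Jun, Junb and Fosl2 1437247_at under c-myc lie apart from those of WA and WC.

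Taking the lines as the repeats asked which of these changes were shared. For v-src against the empty vector, 2 member probe sets were higher and 0 lower over the 3 lines, against 3.14% and 3.08% of all probe sets. The median difference of the 11 was 0.62 against 0.02 over all probe sets. Both called probe sets belong to Fosl1, with 1.73 (SE 0.34, adjusted p = 0.0245) and 1.90 (SE 0.37, adjusted p = 0.0231) on the log2 scale (n = 3 lines). These calls were lost without the intensity trend of the test, at 0.0555 and 0.0519, and without line WA, at 0.0732 and 0.105, or WC, at 0.175 and 0.154 (adjusted p). Junb gave 1.63 (SE 0.55, adjusted p = 0.131), Fosb 1.03 (SE 0.33, adjusted p = 0.116) and the leading Jun probe set 0.62 (SE 0.26, adjusted p = 0.218), none of them called. The count was 3 without WC empty vector replicate 1, with Fosl2 1422931_at as the addition (adjusted p = 0.0449). For c-myc, 1 probe set was higher and 0 lower over the lines, against 4.11% and 3.83% of all probe sets, and the median was 0.21 against 0.06. It was Fosl2 1422931_at, 0.71 (SE 0.17, adjusted p = 0.0446), while the leading Fosl2 probe set gave -0.20 (SE 0.21, adjusted p = 0.656). The call was lost without any 1 line (adjusted p = 0.0672 to 0.258). It was also lost without WA empty vector replicate 3, WC empty vector replicate 2, WB v-src replicate 3, WB c-myc replicate 3, or replicate 2 or 3 of WC c-myc (adjusted p = 0.0502 to 0.0665). The Fos difference over the lines was 0.21 with an interval of -0.96 to 1.37, and that of Junb was 0.59 with an interval of -0.67 to 1.85.

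Setting v-src directly against c-myc compared the oncogenes with each other. Over the lines 3 member probe sets were higher with v-src and 0 lower, against 5.6% and 6.67% of all probe sets. They were both Fosl1 probe sets, 1.28 (SE 0.34, adjusted p = 0.0455) and 1.38 (SE 0.37, adjusted p = 0.0461), and Jun 1448694_at, 1.10 (SE 0.27, adjusted p = 0.031). Both Fosl1 calls were lost without WA empty vector replicate 3, WC empty vector replicate 3 or WC c-myc replicate 1, where 1 call was left, and that of 1417488_at also without WB v-src replicate 3 or WB c-myc replicate 2. 0 calls were left without line WA, and 0 without line WC. In WA 7 probe sets were higher with v-src and 0 lower, against 9.06% and 11% of all probe sets, and in WC 6 were higher and 0 lower, against 9.17% and 11.3%. In WB only Fosl2 1437247_at was higher with v-src, 0.56 (SE 0.09, adjusted p = 3.52e-05), and 2 were lower, Fos with -1.14 (SE 0.28, adjusted p = 0.00532) and Junb with -0.75 (SE 0.20, adjusted p = 0.00915); 7.34% of all probe sets were higher there and 7.77% lower. Without WB v-src replicate 2, the Fos call (0.0747) and the Junb call (0.0511) were lost, and without replicate 3 the Junb call (0.0893, adjusted p).

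The lines also differed in the cells that received no oncogene. As each line has a single empty vector group, differences between lines and between infected populations cannot be told apart. With the empty vector, WC was higher than WA for 5 member probe sets and lower for 0, against 7.87% and 7.42% of all probe sets, and higher than WB for 6 and lower for 2, against 8.1% and 8.22%. Fos in WC exceeded WA by 1.79 (SE 0.25, adjusted p = 1.22e-05) and WB by 2.02 (SE 0.25, adjusted p = 2.07e-06), and Junb exceeded them by 1.22 (SE 0.18, adjusted p = 1.62e-05) and 1.20 (SE 0.18, adjusted p = 1.8e-05), on the log2 scale. Both genes have widely spread WC empty vector arrays, with log2 standard deviations of 0.90 for Fos and 0.54 for Junb. With the empty vector in WA and WB these were 0.16 and 0.11 for Fos, and 0.07 and 0.12 for Junb. The SEs pool the spread of all 9 groups. Without WC empty vector replicate 1 the differences of WC from WA and from WB were 2.29 and 2.52 for Fos, and 1.52 and 1.5003 for Junb. The calls then numbered 7 against WA and 9 against WB. Fitting only the groups compared left 3 calls against WA and 6 against WB, with 3677 and 5771 calls over all tested probe sets. Over all tested probe sets, the other settings gave at most 7303 calls for WC against WA, in place of 6883. For WC against WB they gave at most 7788, in place of 7350. Fosl2 1437247_at was tighter, with WC above WA by 0.71 (SE 0.08, adjusted p = 2.31e-07) and above WB by 1.34 (SE 0.08, adjusted p = 4.86e-12), or 0.74 and 1.36 without that array. Fosl1 was lower in WC than in WB, -0.74 (SE 0.14, adjusted p = 0.000603) on the leading probe set, or -0.73 without that array. WB was higher than WA for 2 probe sets and lower for 2, against 6.36% and 5.99% of all probe sets. Both Fosl1 probe sets were higher, 0.68 (SE 0.14, adjusted p = 0.00188) and 0.86 (SE 0.20, adjusted p = 0.0037). Both of Fosl2 were lower, -0.62 (SE 0.08, adjusted p = 2.31e-06) and -0.43 (SE 0.13, adjusted p = 0.0234). The difference of Fosl1 1417488_at was 0.56 without WA empty vector replicate 3, and the call of Fosl2 1422931_at was lost without WA empty vector replicate 1 or 2 or WB empty vector replicate 1 or 3 (adjusted p = 0.0626 to 0.124).

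Other immediate early genes were mostly higher with c-myc in WB and mostly lower or not called in WA and WC. Of 12 measured, on 1 probe set each, 9 were higher and 1 lower with c-myc in WB, against 7.71% and 9.22% of all genes. In WA 0 were higher and 7 lower, against 12% and 12.4%, and in WC 0 were higher and 6 lower, against 12.2% and 12.2%. The number lower in WC was 10 without WC empty vector replicate 1 and 4 without replicate 3. The list's median log2 difference was 0.93 in WB, -0.65 in WA and -0.62 in WC, against 0.04 in WB, 0.06 in WA and 0.025 in WC over all genes. Egr1, the zinc finger factor induced alongside Fos by serum and chosen here after its values were seen, had signals of 5925, 6876 and 6593 on WB c-myc arrays and 2271, 2587 and 2768 on WB empty vector arrays, a log2 difference of 1.34 (SE 0.22, adjusted p = 0.000142). In WA the difference was -0.77 (SE 0.22, adjusted p = 0.0138) and in WC -1.04 (SE 0.22, adjusted p = 0.00122). Dusp1, which encodes a phosphatase that switches off MAP kinases, was lower with c-myc over the lines, -1.33 (SE 0.31, adjusted p = 0.0351), and was the 1 gene of the list that fell in WB, -0.66 (SE 0.16, adjusted p = 0.0067). With v-src over the lines Ier3 was higher, 1.49 (SE 0.33, adjusted p = 0.0355), as 1 of 12, with 0 lower, against 4.05% and 3.86% of all genes.

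**Figure D4:**
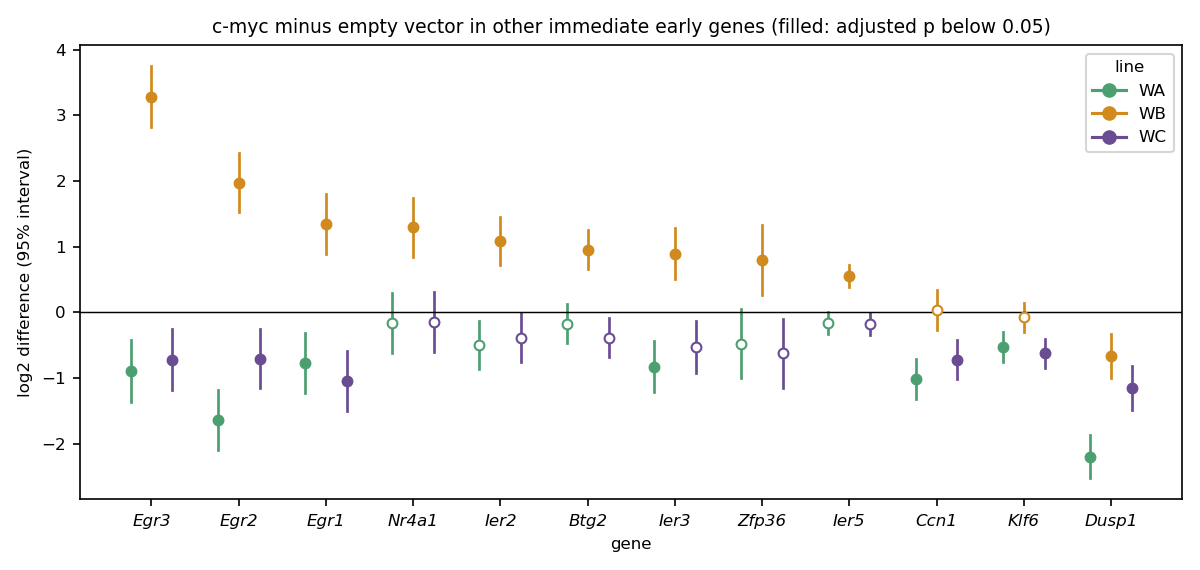
Log2 differences between c-myc and empty vector arrays, with 95% intervals, for 12 other immediate early genes in lines WA, WB and WC, ordered by the WB value; filled points have an adjusted p under 0.05. In WB 9 genes lie above 0 and pass the test, while 0 of the 12 do so in WA or WC.

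Among textbook AP-1 targets of fibroblasts, matrix-degrading enzymes stood at the top with v-src. Over the lines 7 of 17 measured targets were higher and 0 lower, against 4.05% and 3.86% of all genes, with a list median of 1.11 against 0.03. Within lines 12 were higher with v-src in WA, against 8.53% of all genes, 10 in WB, against 7.92%, and 10 in WC, against 9.28%. In each line 0 were lower, against 9.03% of all genes in WA, 8.59% in WB and 9.95% in WC. Mmp13, a collagenase, gave 5.13 (SE 0.61, adjusted p = 0.00363), and Mmp10, a stromelysin, 3.98 (SE 0.54, adjusted p = 0.00573), on the log2 scale. Mmp13 signals were 9660.2, 8538 and 9365 on WC v-src arrays and 63.9, 35.0 and 37.3 on WC empty vector arrays, without overlap. This WC difference was larger than the 5.13 over the lines, and the WA and WB signals are not given here. With c-myc over the lines 0 targets were higher and 2 lower, against 5.21% and 5.33% of all genes: the metalloproteinase inhibitor Timp1, -1.40 (SE 0.29, adjusted p = 0.0247), and cyclin D1 (Ccnd1), -0.71 (SE 0.17, adjusted p = 0.0374). Within WA 1 of 17 targets was higher with c-myc and 9 lower, against 12% and 12.4% of all genes, with a list median of -1.08. In WB 4 were higher and 1 lower, against 7.71% and 9.22%, with a median of 0.015, and 2 were higher without WB c-myc replicate 3. In WC 0 were higher and 5 lower, against 12.2% and 12.2%, with a median of -0.34, and 7 were lower without WC empty vector replicate 1.

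Upstream and partner genes mostly did not pass the test over the lines. Of all genes, 4.05% were higher and 3.86% lower with v-src there, and 5.21% and 5.33% with c-myc. Of 17 kinases and factors upstream of Fos and Jun, 1 was higher and 2 lower with v-src over the lines: the ERK kinase gene Map2k1, 0.87 (SE 0.08, adjusted p = 0.00194), and the serum response factor Srf, -0.98 (SE 0.17, adjusted p = 0.0158), and its cofactor Elk4, -0.50 (SE 0.11, adjusted p = 0.0304). With c-myc 0 were higher and 2 lower, Map2k1 with -0.37 (SE 0.08, adjusted p = 0.0287) and the Ets factor Elk3 with -0.42 (SE 0.10, adjusted p = 0.0367). Of 12 AP-1 partners measured, 1 was lower with v-src, Atf4 with -0.40 (SE 0.08, adjusted p = 0.0218), and 1 lower with c-myc, the AP-1 repressor Jdp2 with -1.20 (SE 0.19, adjusted p = 0.0106). 0 partners were higher with either oncogene. Within lines most of these counts were larger, as were the shares of all genes. With v-src 5 upstream genes were higher and 4 lower in WA, 3 and 4 in WB, and 4 and 5 in WC, beside the shares of all genes given for the targets. Without WC empty vector replicate 1 the WC counts were 4 and 4. Of the partners 1 was higher and 0 lower with v-src in WA, 5 and 1 in WB, and 3 and 2 in WC. Without WC empty vector replicate 1 the WC counts of partners were 1 and 2. Of all genes, 12% were higher and 12.4% lower with c-myc in WA, and 12.2% and 12.2% in WC. In WB these shares were 7.71% and 9.22%. With c-myc 0 upstream genes were higher and 3 lower in WA, 2 and 2 in WB, and 1 and 4 in WC, or 1 and 2 without WC empty vector replicate 1. Of the partners 2 were higher and 2 lower with c-myc in WA, 3 and 1 in WB, and 2 and 2 in WC, or 1 and 2 without WC empty vector replicate 1.

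Among 13011 other genes, those whose 9 group means ran most like a member were named by Pearson correlation, with the groups sharing lines and vectors. For Fos they were Gm3715 (0.917) and Egr1 (0.910), for Fosb Mal (0.968) and Khdc4 (0.947), and for Fosl1 Klf5 (0.947) and Nes (0.944). For Fosl2 they were Ifitm3 (0.957) and Zdhhc24 (0.952), and for Jun Miga2 (0.956) and Lrig2 (0.945). For Junb they were Mal (0.932) and Frs3 (0.927), and for Jund Sox9 (0.988) and Gprc5c (0.964). The Jund group means spanned only 0.61 on the log2 scale, and all neighbouring groups overlapped. Among the leading probe sets of the members, Fosb and Junb correlated at 0.898, Jun and Junb at 0.873, and Fosl1 and Fosl2 at 0.425 over the 9 group means.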

How the data were processed

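Signals of 45101 probe sets on 26 arrays were the intensity values the authors deposited, made with MAS5 per the submitters' processing notes; the trimmed mean (2% off each end) was 500.0 on every array, and array medians were 89.0 to 134.6. Of the probe sets, 34945 had 1 gene symbol in the platform annotation, 932 several and 9160 none listed, and 64 were controls. Values were used as log2(signal + 23), the constant being the 20th percentile. limma 3.58.1 in R 4.3.3 tested 45037 probe sets with an intensity trend and Benjamini-Hochberg adjustment (adjusted p under 0.05). Effects over the lines came from a fit of 9 group averages with line as a term (n = 3 lines), and effects within lines from 9 group means of 26 arrays; interactions used F tests. The fits were tested on simulated data. Tables and figures used Python 3.11.15, pandas 2.3.3, numpy 2.4.6 and matplotlib 3.10.9. All probe sets of the 7 members were named. Of each pathway list, with 1 probe set per gene, at most 4 genes called over the lines were named (2 highest, 2 lowest), and 2 genes most like each member; other names were chosen after their values were seen. The members and lists were chosen with earlier results of these data known. Replicate 1 of v-src in WB was not analysed here, and the free-text sample description, which speaks of other material, was not used. Alternatives changed the normalization, constant, filter, probe set choice, trend, samples fitted and blocks. The number of arrays limits the precision.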

Additional observations from a re-analysis of the deposited data

Results flagged for a closer look

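The c-myc effect differed between the lines WA, WB and WC in limma's F test of the interaction for 8 of the 11 member probe sets, with these adjusted p-values: 3.13e-08 for Junb, 2.44e-07 for Fosl2 1437247_at, 4.15e-06 for Fos, 5.53e-06 for Jun 1417409_at, 1.78e-05 for Jun 1448694_at, 5.06e-05 for Fosl1 1417487_at, 0.00395 for Fosl1 1417488_at and 0.0342 for Fosl2 1422931_at. The last was lost without WB empty vector replicate 1 or 3, WC empty vector replicate 1 or 3, WA c-myc replicate 2 or 3, WB c-myc replicate 3 or WC c-myc replicate 1.

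The v-src effect differed between the lines for 6 probe sets. The adjusted p was 3.65e-06 for Fosl2 1437247_at, and 0.00344 for Fosl2 1422931_at. The v-src differences on 1437247_at were 0.57 for WA, 1.09 for WB and -0.01 for WC. It was 0.013 for Fos, whose differences were 0.45, 0.94 and -0.75 in WA, WB and WC, and 0.0163 for Junb, a call lost without WC v-src replicate 3 (0.0524). Fosl1 gave 0.0252 on 1417487_at and 0.0361 on 1417488_at. The 1417487_at call was lost without WB empty vector replicate 2, WC empty vector replicate 2, WB v-src replicate 2 or 3, or WC v-src replicate 2 or 3, and that of 1417488_at without any 1 array of WB empty vector, WB v-src or WC v-src or without WC empty vector replicate 1 or 2, with adjusted p up to 0.142.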

How the results depend on the processing

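Under settings other than leaving out 1 array, 1440 of 1538 member results kept their call and direction, 46 lost and 52 gained a call, and 0 reversed; leaving out 1 array, 4740 of 4862 kept it, 96 lost, 26 gained and 0 reversed. The cause of these moves was not tested.

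For v-src against the empty vector over the lines, the count of 2 became 1 with 1 probe set per gene (of 7), 0 without the intensity trend, 0 without line WA, 1 without line WC, and 8 with 26 arrays as separate values or with group as a random block. For c-myc against the empty vector over the lines, the count of 1 became 0 with quantile normalization, the higher constant, 1 probe set per gene, no intensity trend, or without line WA or WC, and 2 without line WB, with separate arrays or with the random block. For v-src against c-myc over the lines, the count of 3 became 1 with the higher constant, 0 without the trend or without line WA or WC, and 6 without line WB, with separate arrays or with the random block. With 1 probe set per gene, v-src in WB had 5 calls, WB against WA with the empty vector 2, and WC against WB 5. Fitting only the groups compared left 4 calls for v-src in WC, 2 for c-myc in WC and 3 for WC against WA.

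The contrast of c-myc effects in WB minus WC without WC empty vector replicate 1, chosen after seeing the data, had 5 member calls in place of 7.

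Leaving out 1 array at a time, the calls ranged from 2 to 3 for v-src, 0 to 1 for c-myc and 1 to 3 for v-src against c-myc over the lines. Against the empty vector within WA, WB and WC they ranged from 7 to 10, 7 to 8 and 4 to 7 for v-src and from 4 to 5, 8 to 9 and 5 to 7 for c-myc. For v-src against c-myc they ranged from 7 to 8, 1 to 4 and 6 to 7. With the empty vector they were 3 to 4 for WB against WA, 4 to 7 for WC against WA and 6 to 9 for WC against WB, and for the difference between lines 7 to 9 for c-myc and 3 to 6 for v-src.

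Over all tested probe sets, same-numbered arrays of different groups had deviations that correlated at -0.11 to 0.12, with 2 of 100 pairs above 0.1. Whether replicate numbers pair the arrays in the genes treated here was not tested. Of the 12 other immediate early genes, replicate 1 was lowest in 10 for WC empty vector, 7 for WB empty vector and 7 for WC c-myc. It was lowest in 6 for WA c-myc, 5 for WB c-myc, 4 for WA empty vector, 4 for WC v-src and 2 for WA v-src. With the replicate number as a block on separate arrays, the counts over the lines were 8 for v-src, 2 for c-myc and 6 for v-src against c-myc; within lines 1 call was lost, Fos with v-src in WC, and 1 interaction call.

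Over all probe sets, the 5526 calls of v-src against c-myc over the lines ranged from 1407 to 11657, the 2799 of v-src from 717 to 9500 and the 3578 of c-myc from 210 to 10575 across settings. Fitting only the groups compared gave 4099 calls in place of 8110 for c-myc in WC and 3677 in place of 6883 for WC against WA. Without WB v-src replicate 2, v-src in WB had 3196 calls in place of 5667, and v-src against c-myc in WB 4111 in place of 6806.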
